A study of Mus musculus with 15 samples.

Results

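The 10 genes described here carry sulfur from methionine to cysteine, taurine and glutathione: Mat2a and Ahcy of the methionine cycle, Cbs and Cth of transsulfuration, Cdo1 and Csad of the route to taurine, Slc7a11 for cystine import, and Gclc, Gclm and Gss of glutathione synthesis. They were found by their symbols among the 24490 genes of the count files, and 10 of 10 passed the filter on low counts that left 14907 genes. The list was put together with earlier results of these data known. Cdo1 was among the members chosen from such values, since its low level after Foxl2 siRNA at 30 h was already in view, and which other values entered is not recorded. Cdo1 is therefore described without a test after Foxl2 siRNA, and the calls of the other members in those comparisons are not independent evidence.

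RNA was sequenced from cultured primary granulosa cells, which line the ovarian follicle around the oocyte, of 8-week-old RjOrl:SWISS females. All cells were transfected by Lipofectamine RNAiMax with 30 pmol of siRNA, and 5 groups of 3 libraries were made: Foxl2 siRNA at 30 h and at 54 h, Esr2 siRNA at 30 h, and scrambled siRNA at 30 h and at 54 h. Each targeting pool held 3 siRNAs, but the labels list the same catalogue numbers for both targets, and they give 30 h as the time of extraction although the sample titles also name 54 h. FOXL2 is a forkhead transcription factor and Esr2 encodes oestrogen receptor beta. Nothing in the labels tells whether replicates were grown or collected separately, so a p-value here reflects the spread among these libraries only, which may be technical.

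In the methionine cycle, methionine is activated to S-adenosylmethionine, used for methylation, and released as homocysteine. Transsulfuration moves the sulfur of homocysteine to cysteine, which is oxidised toward taurine or joined with glutamate and glycine into glutathione. In the ovary, glutathione is known as a main antioxidant of granulosa cells and oocytes, and cells can also import cystine to make it. NRF2 and ATF4 are the transcription factors best known for driving cystine import and, for NRF2, the first step of glutathione synthesis.

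Promoters of 3 members are shown because the results turn on Cbs, while Slc7a11 and Gclm are textbook targets of ATF4 and NRF2. They are the 250 bases before the RefSeq start in build GRCm38.p6, read along the gene: Cbs at chr17:31637206-31637455 on the minus strand, Slc7a11 at chr3:50443614-50443863 on the minus strand and Gclm at chr3:122245307-122245556 on the plus strand. Capitals mark matches to TGATGNAA, a C/EBP-ATF element, in Slc7a11 and to TGACNNNGC, an antioxidant response element, in Gclm.
Cbs: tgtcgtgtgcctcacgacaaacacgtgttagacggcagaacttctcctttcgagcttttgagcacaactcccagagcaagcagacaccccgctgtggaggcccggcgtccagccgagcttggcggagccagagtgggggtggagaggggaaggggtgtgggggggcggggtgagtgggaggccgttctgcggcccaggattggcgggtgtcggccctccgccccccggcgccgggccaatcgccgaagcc
Slc7a11: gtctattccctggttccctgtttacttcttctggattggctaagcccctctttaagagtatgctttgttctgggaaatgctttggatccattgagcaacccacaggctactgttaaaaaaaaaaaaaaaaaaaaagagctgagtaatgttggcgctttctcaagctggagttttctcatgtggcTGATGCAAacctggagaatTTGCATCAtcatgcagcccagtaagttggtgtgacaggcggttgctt
Gclm: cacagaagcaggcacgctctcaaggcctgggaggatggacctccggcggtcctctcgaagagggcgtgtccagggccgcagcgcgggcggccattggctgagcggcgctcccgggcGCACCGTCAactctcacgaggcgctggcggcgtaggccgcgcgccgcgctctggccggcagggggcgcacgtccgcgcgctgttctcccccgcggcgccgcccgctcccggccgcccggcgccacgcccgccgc

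Each motif was searched on both strands, and 7 of the 10 members had an entry in the RefSeq promoter table. The Slc7a11 window held TGATGNAA at 2 places, whose first bases lie at -66 and -47 from the start, against a match in 3.4% of 32536 promoter windows of this length. It also held the forkhead motif GTAAACA, on the other strand at -232, which 3.17% of windows hold. The Gclm window held TGACNNNGC once, at -134, and 10.2% of windows hold it. Of the other members with an entry, Gss had the forkhead motif ATAAACA at -31 (in 4.14% of windows) and the oestrogen half-site GGTCA at -76, and Ahcy had GGTCA at -205 (in 35.3% of windows). GGTCA is also part of the full oestrogen response element, which was searched as well and matched none of these windows. The Cbs window matched no motif; a match is a description of letters, and no match says only that these letters are absent from this window.

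Library depth was 45.0 to 59.6 M gene counts, and levels are given as counts-per-million (CPM) after TMM scaling. The siRNA targets went with the labels: at 30 h Foxl2 had 33.8, 28.4 and 65.4 CPM after Foxl2 siRNA, against 174, 152 and 143 CPM after scrambled siRNA, and Esr2 averaged 13.7 CPM after Esr2 siRNA, against 60.9 CPM after scrambled siRNA. Esr2 was also lower after Foxl2 siRNA: it averaged 33.2 CPM, against 60.9 CPM after scrambled siRNA, at 30 h (edgeR adjusted p = 0.109), and 27.7 CPM, against 68.8 CPM, at 54 h, without overlap at either time. The fall at 54 h was 2.48-fold (adjusted p = 0.00854) and was not called in a fit of only the groups compared (adjusted p = 0.0652). At 30 h the fall passed in such an edgeR fit (adjusted p = 0.0436) and without replicate 3 of Foxl2 siRNA (0.0443). It also passed with DESeq2, which called 17.3% of all genes (adjusted p = 0.0465), and with limma's voom with quality weights, which called 35.2% (0.000145). Its adjusted p ran from 0.000145 to 0.32 over the alternatives. Within the Foxl2 siRNA groups, replicate 3 at 30 h (65.4 CPM) and replicate 2 at 54 h (57.5 CPM) kept the most Foxl2, and the other 4 libraries had 25.2 to 33.8 CPM. Those replicates also kept the most Esr2 (45.5 and 49.3 CPM), against 15.7 to 29.2 CPM in the other libraries of these groups. Summed granulosa markers were 5990 to 8420 CPM over the libraries, with Cyp11a1 and Inha the highest in every group. Fshr averaged at most 0.681 CPM in any group. After Esr2 siRNA the sums (5990 to 6250 CPM) lay below those after scrambled siRNA at 30 h (6910 to 7830 CPM). After Foxl2 siRNA they overlapped the scrambled sums at 30 h (7710 to 8420 CPM). At 54 h the Foxl2 siRNA sums (6810 to 7200 CPM) lay below the scrambled ones (7310 to 7430 CPM). The 10 markers include Foxl2, the siRNA target, itself called lower at both times. After Foxl2 siRNA, 3 of 10 were called lower at 30 h and 4 of 10 at 54 h, with 3 higher at each time. Of all genes, 13.0% were called at 30 h and 38.8% at 54 h. Among the markers, Cyp11a1 averaged 4060 CPM after Foxl2 siRNA and 2530 CPM after scrambled siRNA at 30 h. Gja1 averaged 191 CPM after Foxl2 siRNA and 1660 CPM after scrambled siRNA at 54 h. Leukocyte markers summed to at most 6.7 CPM, with Tyrobp at 0 throughout. At 54 h they summed to 4.28 to 5.35 CPM after Foxl2 siRNA, against 2.96 to 3.29 CPM after scrambled siRNA. After Foxl2 siRNA 1 of 2 tested was called higher at each time. Oocyte markers summed to 1.35 to 1.96 CPM, against 2.45 to 3.03 CPM, in the same groups at 54 h. There 1 of 2 tested was called lower. Theca and stroma markers summed to 130 to 792 CPM and smooth muscle markers to 318 to 1060 CPM, with ranges that overlapped between the groups. Of 6 smooth muscle markers 1 was called higher at 54 h after Foxl2 siRNA. Of 6 ovarian surface epithelium markers, 1 was called higher at 30 h and 4 at 54 h after Foxl2 siRNA and none lower. They summed to 65.0 to 102 CPM after Foxl2 siRNA, against 23.7 to 49.7 CPM after scrambled siRNA, at 30 h, and to 255 to 346 CPM, against 35.8 to 78.1 CPM, at 54 h. The part of these cells in the results below was not tested, and in such bulk samples fewer cells of a type and less RNA per cell cannot be told apart.

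Levels differed widely among the members. Per kilobase of exon, in the 6 scrambled libraries, Mat2a and Ahcy led with 45.3 and 40.8 CPM per kilobase, followed by Gclc (14.4), Cdo1 (13.7), Gclm (7.25), Cth (6.82), Csad (4.49), Gss (4.32), Cbs (1.36) and Slc7a11 (0.608). Cbs and Cdo1 had the widest ranges: the highest library exceeded the lowest 35.5-fold for Cbs and 26.5-fold for Cdo1. The same ratio was 3.36 for Slc7a11 and lay between 1.19 (Gclc) and 1.7 (Cth) for the other members.

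**Figure D1:**
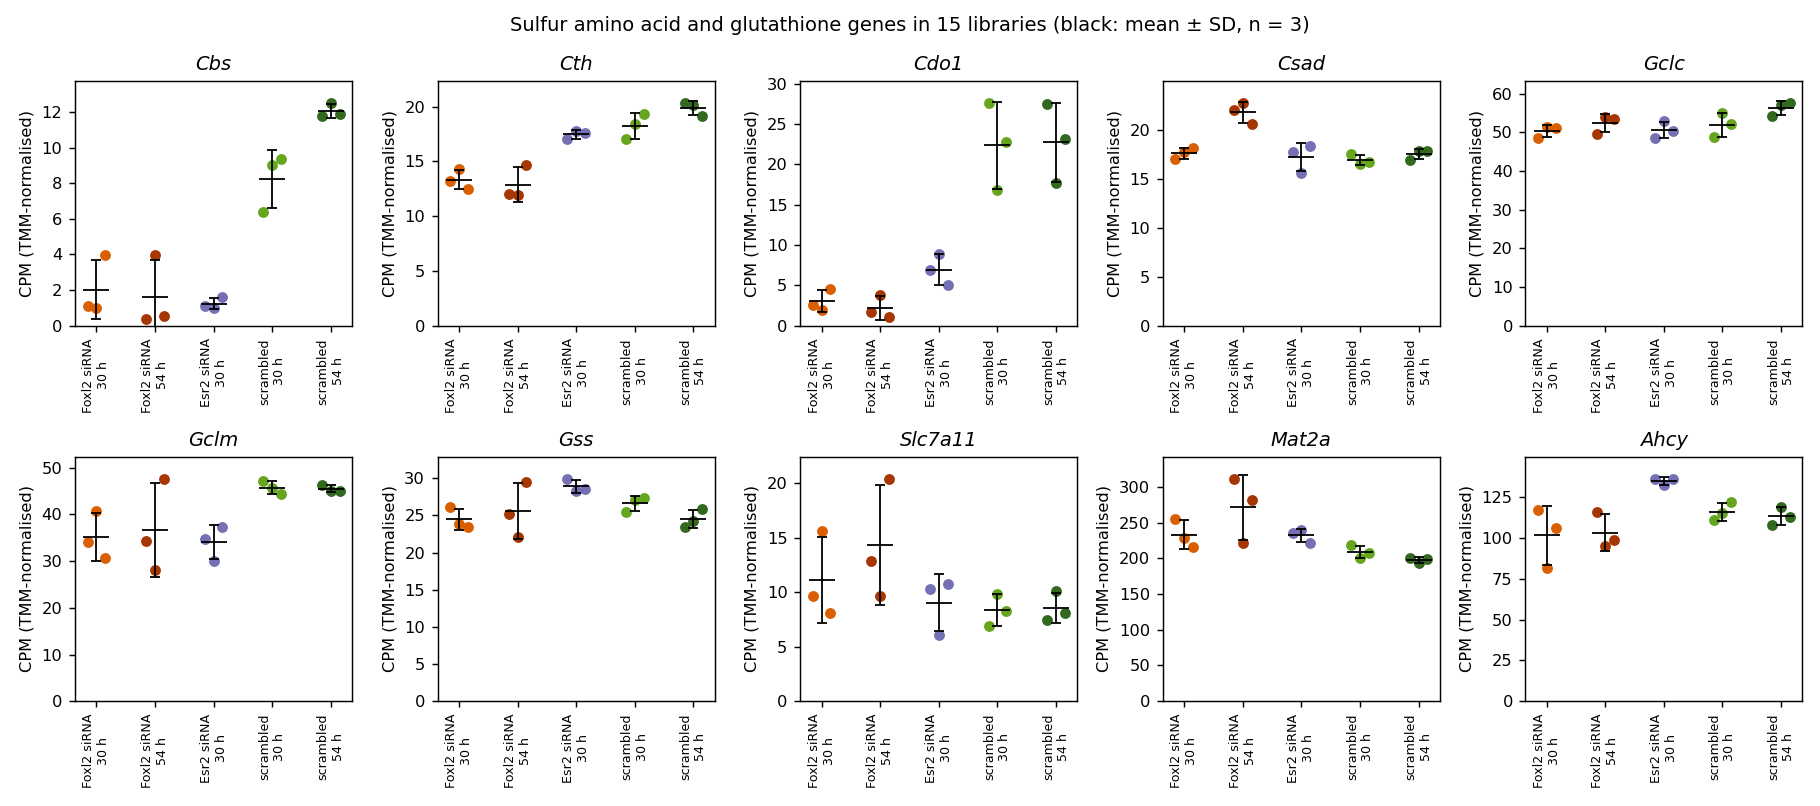
TMM-normalised CPM of the 10 genes in each of 15 libraries; points are libraries in replicate order, black bars the mean ± SD of 3, and error bars that reach below 0 are cut there. Cbs and Cdo1 lie lower in all 9 libraries with Foxl2 or Esr2 siRNA than in any scrambled library, while Gclc lies between 48.4 and 57.5 CPM throughout.

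Transsulfuration transcripts were lower after Foxl2 siRNA. Cbs encodes cystathionine beta-synthase, which joins homocysteine to serine, and lies at chr17:31608894-31637238 (minus strand; GENCODE M21, mm10). At 54 h it had 0.352, 3.98 and 0.559 CPM after Foxl2 siRNA, against 11.8, 12.5 and 11.9 CPM after scrambled siRNA. Every Foxl2 siRNA library was below every scrambled one, and replicate 2, which kept the most Foxl2 at 54 h, had the most Cbs. The fitted fall was 7.25-fold, as folds are given throughout (log2 change -2.86 ± 0.71 (SE), edgeR quasi-likelihood adjusted p = 0.00653), and without replicate 2 the log2 change was -4.71.

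At 30 h Cbs had 1.11, 1.01 and 3.94 CPM after Foxl2 siRNA, against 6.36, 9.04 and 9.35 CPM after scrambled siRNA. The groups again did not overlap, and the high value was that of replicate 3, the library with the most Foxl2 at 30 h. The log2 change of -2.03 ± 0.69 did not pass the test (edgeR adjusted p = 0.0714). Without replicate 3 it was -2.96 (adjusted p = 0.0197), where 19.9% of all genes were called. Limma's voom with quality weights, which gives discordant libraries less weight, gave -2.78 (adjusted p = 6.36e-05) and called 35.2% of all genes. Over the alternatives the adjusted p ran from 6.36e-05 to 0.225.

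Cth encodes cystathionine gamma-lyase, which releases cysteine from cystathionine and also makes hydrogen sulfide, and lies at chr3:157894248-157925077 (minus strand). It had 13.2, 14.3 and 12.5 CPM after Foxl2 siRNA, against 17.0, 18.4 and 19.3 CPM after scrambled siRNA, at 30 h. At 54 h it had 12.0, 11.9 and 14.7 CPM after Foxl2 siRNA, against 20.3, 20.1 and 19.1 CPM after scrambled siRNA. Neither pair of groups overlapped, and the change was far smaller than that of Cbs. Cth fell 1.37-fold at 30 h (log2 change -0.45 ± 0.09, edgeR adjusted p = 0.00487) and 1.54-fold at 54 h (-0.62 ± 0.09, adjusted p = 0.000148), and both calls held under every alternative run.

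Cdo1 encodes cysteine dioxygenase, the first enzyme of cysteine oxidation toward taurine, and lies at chr18:46713193-46728395 (minus strand). It had 2.56, 1.92 and 4.53 CPM after Foxl2 siRNA, against 27.6, 16.8 and 22.8 CPM after scrambled siRNA, at 30 h, and 1.69, 3.79 and 1.04 CPM, against 27.5, 17.7 and 23.1 CPM, at 54 h. The fitted level was 7.45-fold lower at 30 h and 10.4-fold lower at 54 h, and no library of 1 group reached the other. As with Cbs, the libraries with the most remaining Foxl2, replicate 3 at 30 h and replicate 2 at 54 h, had the most Cdo1 of their groups. The same libraries had the least Cth and Gclm and the most Csad of their groups, furthest from the scrambled libraries. A link to the level of Foxl2 was not tested. Csad, whose enzyme cysteine sulfinic acid decarboxylase acts next on this route (chr15:102176999-102204724, minus strand), went the other way at 54 h. It had 22.0, 22.7 and 20.6 CPM after Foxl2 siRNA, against 16.9, 17.8 and 17.8 CPM after scrambled siRNA, a rise of 1.24-fold (log2 change 0.31 ± 0.07, edgeR adjusted p = 0.00318). At 30 h Csad averaged 17.6 ± 0.557 CPM after Foxl2 siRNA and 16.9 ± 0.519 CPM after scrambled siRNA (SD, n = 3), with overlap (adjusted p = 0.639). Csad shares its place with Zfp740 on the opposite strand, and the strand setting of the counting is not given in the sources used here.

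**Figure D2:**
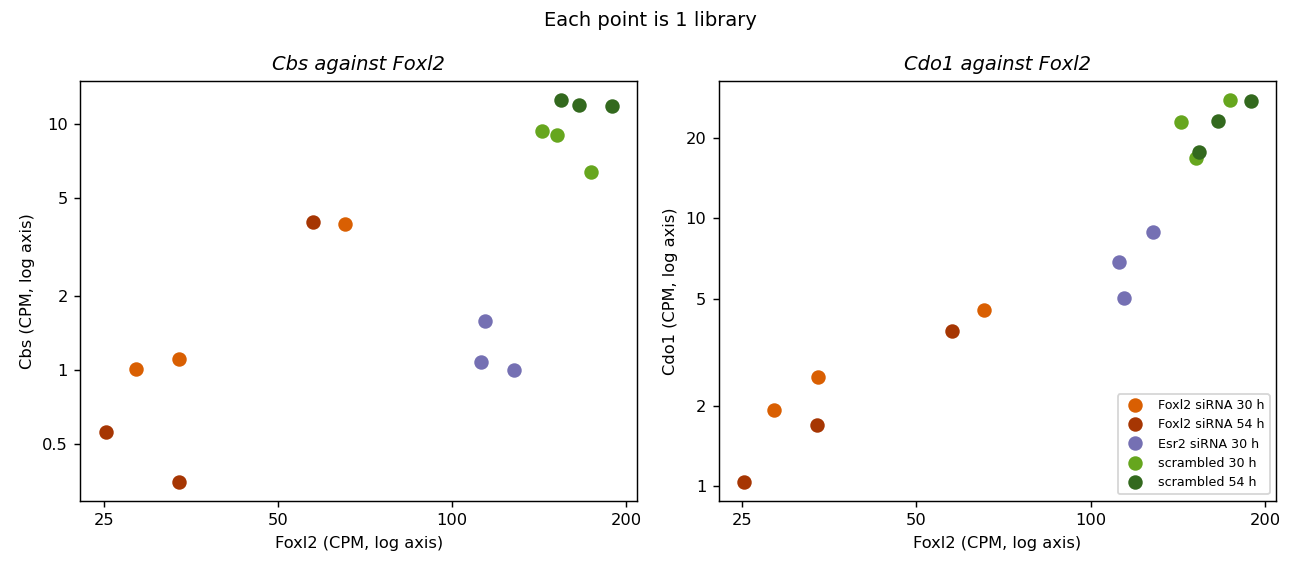
Cbs (left) and Cdo1 (right) against Foxl2 in each of 15 libraries, in CPM on log axes, coloured by group. The Foxl2 siRNA libraries with 65.4 and 57.5 CPM of Foxl2 sit above the other 4 for both genes, and the Esr2 siRNA libraries combine 112 to 128 CPM of Foxl2 with 0.997 to 1.58 CPM of Cbs.

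In the methionine cycle, Mat2a rose after Foxl2 siRNA at 54 h and Ahcy was not called. Mat2a encodes the catalytic subunit of the methionine adenosyltransferase found outside the adult liver, and lies at chr6:72432799-72439558 (minus strand). It had 311, 222 and 282 CPM after Foxl2 siRNA, against 201, 193 and 199 CPM after scrambled siRNA, at 54 h. The groups did not overlap, and replicate 2, with the most Foxl2, was nearest to the scrambled libraries. The rise was 1.37-fold (log2 change 0.46 ± 0.10, edgeR adjusted p = 0.0032). At 30 h the same gene had 255, 228 and 216 CPM after Foxl2 siRNA, against 218, 201 and 208 CPM after scrambled siRNA. These groups overlapped (log2 change 0.16 ± 0.10, edgeR adjusted p = 0.339). With voom, which called 35.2% of all genes, the 30 h change passed (0.23, adjusted p = 0.00968). Over the alternatives at 30 h the adjusted p ran from 0.00968 to 0.689. Particl, a transcript on the opposite strand, overlaps Mat2a.

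Ahcy encodes the enzyme that splits S-adenosylhomocysteine into homocysteine and adenosine. It averaged 102 ± 18.2 CPM after Foxl2 siRNA and 116 ± 5.24 CPM after scrambled siRNA at 30 h (SD, n = 3, here and below), and 103 ± 11.4 CPM after Foxl2 siRNA and 113 ± 5.15 CPM after scrambled siRNA at 54 h. The groups overlapped at both times, with edgeR adjusted p of 0.286 at 30 h and 0.361 at 54 h. Ahcy values are uncertain, since the annotated gene Gm4737 matches its transcript at 99.7% of 2083 aligned bases, so short reads of either may be assigned to the other. Gm4737 had 1.28 to 1.36 counts for each Ahcy count in the 15 libraries.

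Of the 3 glutathione synthesis genes edgeR called none after Foxl2 siRNA, where 13.0% of all genes were called at 30 h and 38.8% at 54 h, and 1 of them had an unadjusted p under 0.05 at 30 h. That gene was Gclm, for the modifier subunit of glutamate-cysteine ligase, which makes the first step of the pathway (chr3:122245557-122270732, plus strand). It had 34.1, 40.8 and 30.6 CPM after Foxl2 siRNA, against 47.2, 45.6 and 44.4 CPM after scrambled siRNA, at 30 h, without overlap (log2 change -0.38 ± 0.16, edgeR adjusted p = 0.13). At 54 h it had 34.3, 28.1 and 47.6 CPM after Foxl2 siRNA, against 46.4, 45.1 and 45.0 CPM after scrambled siRNA. There replicate 3 was the highest library of both groups, and without it the log2 change of -0.31 (adjusted p = 0.13) became -0.55 (adjusted p = 0.00557). Over the alternatives at 54 h the log2 change ran from -0.55 to -0.15, and the adjusted p from 0.00557 to 0.399. DESeq2 called none of the 3 genes at either time. With voom, which called 35.2% of all genes at 30 h, Gclm passed at that time (adjusted p = 0.0104).

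Gclc, for the catalytic subunit of that ligase, had the narrowest range over the 15 libraries. It averaged 50.3 ± 1.66 CPM after Foxl2 siRNA and 52.0 ± 3.11 CPM after scrambled siRNA at 30 h, and 52.3 ± 2.43 CPM after Foxl2 siRNA and 56.3 ± 1.77 CPM after scrambled siRNA at 54 h (edgeR adjusted p = 0.64 and 0.177). The groups overlapped at 30 h and not at 54 h. Gss, for glutathione synthetase, averaged 24.5 ± 1.4 CPM after Foxl2 siRNA and 26.6 ± 1.06 CPM after scrambled siRNA at 30 h. At 54 h the Gss means were 25.6 ± 3.75 CPM after Foxl2 siRNA and 24.5 ± 1.19 CPM after scrambled siRNA (adjusted p = 0.409 at 30 h and 0.607 at 54 h). Acss2 and the antisense genes Gssos1 and Gssos2 overlap Gss.

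Slc7a11, whose promoter carries the paired TGATGNAA matches above, encodes the light chain of the cystine-glutamate exchanger (chr3:49892526-50443614, minus strand). At 54 h it had 12.9, 9.66 and 20.4 CPM after Foxl2 siRNA, against 7.47, 10.1 and 8.13 CPM after scrambled siRNA. The lowest Foxl2 siRNA library, replicate 2, lay below the highest scrambled one. The fitted level was 1.67-fold higher, which did not pass the test (log2 change 0.74 ± 0.30, edgeR adjusted p = 0.0715). It passed without replicate 2 (0.96, adjusted p = 0.0198), with DESeq2 (0.76, adjusted p = 0.0352) and with voom (0.93, adjusted p = 0.00215). Over the alternatives the adjusted p ran from 0.00215 to 0.339. Of all genes, 44.8% were called without replicate 2, 40.9% with DESeq2 and 51.4% with voom. At 30 h Slc7a11 had 9.67, 15.6 and 8.11 CPM after Foxl2 siRNA, against 6.88, 9.84 and 8.32 CPM after scrambled siRNA (edgeR adjusted p = 0.409).

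Counted over the 9 members other than Cdo1, edgeR called 1 lower (Cth) and 0 higher after Foxl2 siRNA at 30 h, where 13.0% of all genes were called, 6.34% higher and 6.65% lower. At 54 h, 2 were called lower (Cbs and Cth) and 2 higher (Csad and Mat2a), where 38.8% of all genes were called, 18.5% higher and 20.3% lower. Without replicate 3 of Foxl2 siRNA, 2 of the 9 were called at 30 h, with 19.9% of all genes called. Without replicate 2 of Foxl2 siRNA, 5 of the 9 were called at 54 h, with 44.8% of all genes called. In the fit of all libraries the median log2 change of the 9 was -0.12 at 30 h and -0.10 at 54 h, against -0.01 over all genes at both times. The list was chosen with values of these comparisons known, so nothing is read from the shares.

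**Figure D3:**
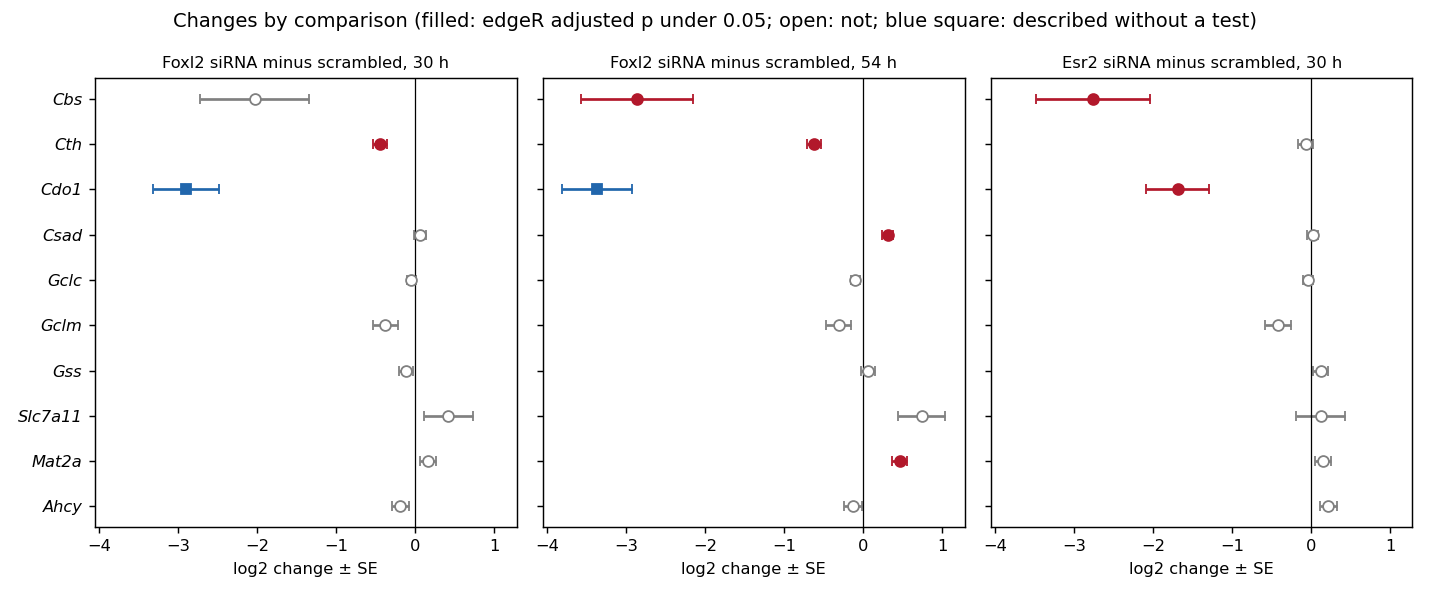
Log2 change ± SE of each member after Foxl2 siRNA at 30 h and 54 h and after Esr2 siRNA at 30 h, each against scrambled siRNA of the same time. Filled red points passed edgeR's adjusted p of 0.05, open points did not, and blue squares mark Cdo1 where it is described without a test; Cbs and Cdo1 lie at -1.69 or lower in every panel.

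The change after Foxl2 siRNA at 54 h minus that at 30 h was tested for the 9 members other than Cdo1, and the edgeR fit called 0 of them, with 0.00671% of all genes called. By an unadjusted p under 0.05 it was 1 member, Csad (difference 0.26 ± 0.10, adjusted p = 0.396). DESeq2 and voom also called 0 members, with 1.41% and 7.08% of all genes called. Without replicate 2 of Foxl2 siRNA at 54 h, Cbs (-2.68, adjusted p = 0.04) and Mat2a (0.42, adjusted p = 0.0342) passed, with 6.0% of all genes called. Between the scrambled groups, 54 h against 30 h, edgeR called 0 of 10 members with 0 at an unadjusted p under 0.05, and called 0.00671% of all genes. Cbs had 11.8, 12.5 and 11.9 CPM at 54 h, against 6.36, 9.04 and 9.35 CPM at 30 h, without overlap. DESeq2 called 0 members here, and voom, which called 18.1% of all genes, called 2, Cbs (0.41, adjusted p = 0.0133) and Gclc (0.12, adjusted p = 0.0119).

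After Esr2 siRNA at 30 h, Cbs and Cdo1 were lower, and edgeR called no other member. Cbs had 1.08, 0.997 and 1.58 CPM after Esr2 siRNA, against 6.36, 9.04 and 9.35 CPM after scrambled siRNA. Cdo1 had 6.84, 8.90 and 5.04 CPM after Esr2 siRNA, against 27.6, 16.8 and 22.8 CPM after scrambled siRNA. Neither gene's groups overlapped. Cbs fell 6.76-fold (log2 change -2.76 ± 0.72, edgeR adjusted p = 0.0483) and Cdo1 fell 3.24-fold (-1.69 ± 0.40, adjusted p = 0.0312), so 2 of 10 members were called, with 4.23% of all genes. These 3 scrambled libraries also served the Foxl2 comparison at 30 h, so neither the fall of Cdo1 against them nor its call is an independent observation. Which values chose the other members is not recorded, so the same limit may hold for Cbs. Nothing is read from the share of members called. Foxl2 itself averaged 118 ± 8.43 CPM after Esr2 siRNA and 157 ± 16.1 CPM after scrambled siRNA, without overlap (log2 change -0.41, edgeR adjusted p = 0.539). That difference passed in a fit of only the groups compared (-0.40, adjusted p = 0.0348) and with voom (-0.36, adjusted p = 0.0404).

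Both calls lay close to the threshold. With upper-quartile scaling the adjusted p of Cbs was 0.0521, and DESeq2 gave Cbs no p. The shared estimate of spread includes the Foxl2 siRNA groups, where the standard deviation of Cbs was 82.4% (30 h) and 125% (54 h) of its mean, against 25.8% after Esr2 siRNA. In a fit of only the groups compared, the adjusted p was 0.00176 for Cbs and 0.00996 for Cdo1, and Gclm (-0.42, 0.0291) and Ahcy (0.22, 0.0424) also passed. Voom called Cbs and Cdo1 and also Gclm (-0.34, adjusted p = 0.00509) and Mat2a, where it called 31.7% of all genes. Leaving out any 1 library of the 2 groups ended the Cbs call (0.0888 to 0.2), and every omission but that of Esr2 siRNA replicate 2 ended the Cdo1 call.

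Gclm had 34.8, 30.1 and 37.4 CPM after Esr2 siRNA, against 47.2, 45.6 and 44.4 CPM after scrambled siRNA, without overlap (log2 change -0.42 ± 0.16, edgeR adjusted p = 0.164). Ahcy had 136, 132 and 136 CPM after Esr2 siRNA, against 111, 115 and 122 CPM after scrambled siRNA, also without overlap (0.22 ± 0.11, adjusted p = 0.331). Mat2a and Gss were higher in every Esr2 siRNA library than in any scrambled one, by a fitted 1.11-fold and 1.09-fold, and were not called by edgeR, while voom called Mat2a (0.14, adjusted p = 0.0433). Cth, Csad, Gclc and Slc7a11 overlapped, with log2 changes between -0.07 (Cth) and 0.12 (Slc7a11).

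Set directly against each other at 30 h, Foxl2 siRNA and Esr2 siRNA differed in Cth and Ahcy, 2 of the 9 members other than Cdo1, with 20.4% of all genes called. Cth had 13.2, 14.3 and 12.5 CPM after Foxl2 siRNA, against 17.0, 17.8 and 17.6 CPM after Esr2 siRNA (log2 change -0.38 ± 0.09, edgeR adjusted p = 0.00737). Ahcy had 117, 81.5 and 106 CPM after Foxl2 siRNA, against 136, 132 and 136 CPM after Esr2 siRNA (-0.41 ± 0.11, adjusted p = 0.0199). With Gm4737 counts added to Ahcy, a choice made after seeing the data, the change was -0.43 (adjusted p = 0.0157). The Ahcy call was lost without Esr2 siRNA replicate 1 (0.069) or 3 (0.0605) and in a fit of only these groups (0.0922). Cbs averaged 2.02 ± 1.66 CPM after Foxl2 siRNA and 1.22 ± 0.314 CPM after Esr2 siRNA, with overlap (adjusted p = 0.507), and Cdo1 averaged 3.0 ± 1.36 CPM after Foxl2 siRNA and 6.93 ± 1.93 CPM after Esr2 siRNA.

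Other genes of the pathway are counted below as called by edgeR, beside 6.34% of all genes called higher and 6.65% lower at 30 h, and 18.5% higher and 20.3% lower at 54 h. These lists too were chosen with earlier results of these data known, so the counts are description and not independent evidence. Of 7 tested amino acid transporters, 1 was called higher and 1 lower at 30 h, and 1 higher and 4 lower at 54 h (median log2 change -0.47 at 54 h, against -0.01 over all genes). Slc3a2, the heavy chain that carries Slc7a11 to the cell surface, had 143, 139 and 180 CPM after Foxl2 siRNA, against 331, 283 and 328 CPM after scrambled siRNA, at 30 h. At 54 h it had 117, 134 and 142 CPM after Foxl2 siRNA, against 326, 315 and 324 CPM after scrambled siRNA. The fall was 2.04-fold at 30 h (edgeR adjusted p = 0.000225) and 2.45-fold at 54 h (adjusted p = 7.52e-06), while Slc7a11 was not called. After Esr2 siRNA Slc3a2 had 327, 386 and 293 CPM, which overlapped the scrambled libraries (adjusted p = 0.772). At 54 h the glutamine carrier Slc1a5 also fell, 1.9-fold (adjusted p = 0.00267), and the neutral amino acid carrier Slc1a4 rose 1.49-fold (adjusted p = 0.000282).

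Of 18 tested genes of the methionine cycle and polyamine side path, 2 were called higher and 0 lower at 30 h, and 1 higher and 4 lower at 54 h (median 0.03 at 54 h). Mat2b, the regulatory partner of Mat2a, rose 1.27-fold at 30 h (adjusted p = 0.00915) and 1.42-fold at 54 h (adjusted p = 0.000182). At 54 h Mtap, which recycles methylthioadenosine, fell 1.73-fold (adjusted p = 0.00705). Of 12 tested genes of cysteine, taurine and sulfide metabolism, 0 were called higher and 2 lower at 30 h, and 2 higher and 4 lower at 54 h (median -0.06 at 54 h). Papss2, which makes the donor for sulfation, had 69.7, 156 and 97.9 CPM after Foxl2 siRNA, against 518, 652 and 586 CPM after scrambled siRNA, at 54 h. This was a 5.42-fold fall (adjusted p = 0.000176), after 2.56-fold at 30 h (adjusted p = 0.0191). Sqrdl, whose enzyme oxidises sulfide in mitochondria, rose 1.84-fold at 54 h (adjusted p = 0.000952), and Got2 fell 1.51-fold (adjusted p = 0.00243).

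Among genes that use or recycle glutathione, 6 of 41 were called higher and 1 lower at 30 h, and 9 higher and 8 lower at 54 h (median 0.08 at 54 h). That is 17.1% at 30 h and 41.5% at 54 h, near the 13.0% and 38.8% of all genes. Gstm2, a glutathione S-transferase, had 712, 368 and 649 CPM after Foxl2 siRNA, against 99.6, 105 and 94.8 CPM after scrambled siRNA, at 54 h, a rise of 5.78-fold (adjusted p = 3e-06). Gstm1 rose 4.41-fold (adjusted p = 1.75e-05). For both, replicate 2 was the Foxl2 siRNA library nearest to the scrambled ones. Genes of this family resemble each other closely, so how reads were divided among them is uncertain. Gstk1 fell 1.9-fold (adjusted p = 0.00186) and Gpx7 fell 1.51-fold (adjusted p = 0.00564).

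Of 19 tested genes of the NRF2 pathway, 6 were called higher and 0 lower at 30 h, and 10 higher and 1 lower at 54 h, where the list's median log2 change was 0.51, against -0.01 over all genes. The list was chosen with earlier results known, and whether NRF2 itself was more active was not tested. Me1, for cytosolic malic enzyme, had 2970, 1460 and 2570 CPM after Foxl2 siRNA, against 858, 910 and 887 CPM after scrambled siRNA, at 54 h, a rise of 2.64-fold (adjusted p = 0.000251). Osgin1 rose 2.43-fold (adjusted p = 0.003), and thioredoxin, Txn1, fell 1.22-fold (adjusted p = 0.00642). Gclc and Gclm, which NRF2 is known to drive, are in the member list and were not called by edgeR, with Gclm called lower by voom at 30 h as given above. Of 18 ATF4 pathway genes, 2 were called higher and 3 lower at 30 h, and 4 higher and 6 lower at 54 h (median -0.12). Atf3 rose 3.28-fold at 54 h (adjusted p = 3.18e-06), and Nupr1 fell 4.55-fold (adjusted p = 0.00111). After Esr2 siRNA at 30 h, edgeR called 4.23% of all genes. It called 0 of 7 transport, 0 of 18 methionine, 0 of 41 glutathione use and 0 of 19 NRF2 list genes. Of 12 sulfide list genes 1 was called higher and 1 lower, and of 18 ATF4 pathway genes 2 were called lower.

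**Figure D4:**
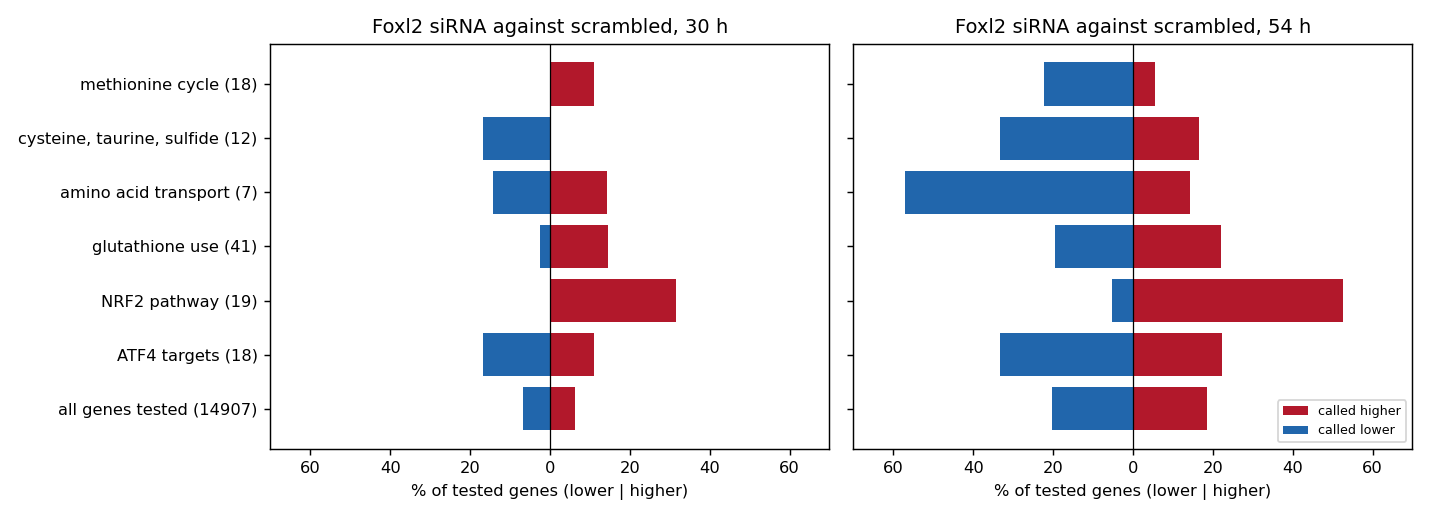
Percentage of tested genes called higher (red, right) and lower (blue, left) after Foxl2 siRNA in 6 pathway lists and over all 14907 genes tested, at 30 h and 54 h, with the number of tested genes in brackets. The NRF2 bar runs furthest to the right at both times, with 6 of 19 genes at 30 h and 10 of 19 at 54 h. The lists were chosen with earlier results of these data known.

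Likeness of pattern was measured by Pearson's r of log2 CPM among 12616 genes over the 15 libraries, which come from 5 groups of 3 and share their treatments. The genes most like Cdo1 were B3glct, Mdfic, Paip2b, Bcl11a and Slc35g1, each with r = 0.97. For Cth they were Cyp4b1 and Lhfpl2 (0.97) and Pofut2, Sulf2 and Pcdh7 (0.96).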

How the data were processed

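The authors deposited whole-number read counts per gene for 15 mouse granulosa cell libraries, not normalized; a count table of the whole series, also deposited by the authors, served only as a check and differed in 0 cells beyond 45 empty ones. Poly(A) libraries were made with a stranded kit, per the labels' protocols. bcl2fastq 2.15.0, TopHat2, DESeq2 and build mm10 are named in the submitters' processing notes; for the counting program, its annotation and its use of strand the entry is: not given in the sources used here. The 92 spike-in rows were left out of sizes and tests (0.105% to 0.352% of counts). In 1 library, 15 symbols that had become dates were restored by gene order.

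Counts were fitted with edgeR 4.0.16 in R 4.3.3: TMM, filterByExpr, 5 group means over 15 libraries, 10 residual degrees of freedom, biological coefficient of variation 0.148, two-sided quasi-likelihood tests and Benjamini-Hochberg adjustment over 14907 genes, called at adjusted p under 0.05. The scripts were tested on simulated data. Depth was 45.0 to 59.6 M gene counts (median 52.4 M), and a count of 3 was taken as the floor. Replicates differed by more than sampling noise in every group (chi-square per degree of freedom 7.18 to 129).

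Alternatives were DESeq2's size factors, upper-quartile scaling, no filter, only the groups compared, DESeq2 1.42.0, limma 3.58.1 voom with quality weights, a replicate block, each library left out, and, chosen after seeing the data, Ahcy and Gm4737 summed. Same-numbered libraries deviated together (r of deviations from group means over 0.1) in 15 of 30 pairs; 3 of 3 passed only between the scrambled groups (0.63, 0.49 and 0.14), where the replicate block called 0 members, as did the fit without it. Members and lists were chosen with earlier results of these data known, and Cdo1 enters no test or count of members in comparisons with Foxl2 siRNA. Named were all members, the siRNA targets, per pathway list up to 2 of the genes with the largest rise and up to 2 with the largest fall among those called at 54 h with a mean of at least 1 CPM, and the 5 genes most correlated with Cdo1 and with Cth. Positions are from GENCODE M21 and promoters from RefSeq.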

Additional observations from a re-analysis of the deposited data

How the results depend on the processing

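In comparisons with Foxl2 siRNA, members are counted without Cdo1. After Foxl2 siRNA at 30 h they numbered 4 with voom and 1 to 2 with 1 library left out, against 1 in edgeR, and no alternative moved the count at 54 h by over 1.5 times. After Esr2 siRNA, against 2, they numbered 1 with upper-quartile scaling, 0 with the replicate block, 4 with only the groups compared, 1 with DESeq2, 4 with voom, and 0 to 1 with 1 library left out. For 54 h against 30 h in scrambled cells voom called 2, against 0. The change of Foxl2 siRNA effect with time gave 0 to 2 with 1 library left out, against 0. Foxl2 siRNA against Esr2 siRNA gave 1 with only the groups compared and 1 to 2 with 1 library left out, against 2. DESeq2 gave Cbs no adjusted p in any comparison, so Cbs is in none of its counts. No called member changed sign. The replicate numbers of the Esr2 siRNA and scrambled groups share only a number (r of deviations -0.14, -0.47 and 0.32), and with the replicate block the adjusted p was 0.0545 for Cbs and 0.0531 for Cdo1.

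Counts over all genes moved by over 1.5 times as follows. Foxl2 siRNA at 30 h, 1936 genes, became 5252 with voom and 898 to 3016 with 1 library left out, the highest without Foxl2 siRNA replicate 3. Esr2 siRNA, 631 genes, became 1131 with only the groups compared, 1109 with DESeq2, 4731 with voom and 238 to 1030 with 1 library left out. Scrambled 54 h against 30 h, 1 gene, became 206, 69 and 2693 in the same order, 3 with the replicate block, and 0 with DESeq2's size factors, without the filter or with any 1 library left out. The difference of changes, 1 gene, became 210 with DESeq2, 1056 with voom, 904 without Foxl2 siRNA replicate 2 and 16 without replicate 3 at 54 h, 3 without Foxl2 siRNA replicate 2 at 30 h and 2 without scrambled replicate 2 at 54 h. Foxl2 siRNA against Esr2 siRNA, 3042 genes, became 1625 with only the groups compared, 5446 with voom, 1767 without Esr2 siRNA replicate 1 and 1998 without replicate 3. The causes were not tested. Cbs had 16 to 687 counts per library.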
